A study of Mus musculus with 23 samples.

Results

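The ovaries of CAST/EiJ females on a high fat, high sugar diet were compared with those of CAST/EiJ females on a control diet. CAST/EiJ is an inbred strain derived from wild mice of the subspecies Mus musculus castaneus. The comparison used 8 of the 23 libraries of the series, chosen by the strain and diet in their labels: 4 from wild type females on a diet with 44% fat and added fiber, and 4 from wild type females on a diet with 10% fat and added fiber. Diets began at 6 weeks of age and ovaries were taken at 15 weeks. The other 15 libraries came from C57BL/6J, the common laboratory strain (4 on 44% fat and 3 on 10% fat), and NZO/HlLtJ, an obesity and diabetes model (4 on each diet), and they shared the statistical fit. Fat and sugar changed together, so their effects cannot be told apart, and the stage of the estrous cycle was not labelled. Whether the 8 libraries came from 8 animals is not labelled; p-values therefore describe variation among libraries, part of which may be technical.

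An ovary holds follicles, in which granulosa and theca cells surround an oocyte, and corpora lutea, the glands that form from ovulated follicles. Luteal cells take up cholesterol from lipoproteins and turn it into progesterone, starting with the mitochondrial enzyme Cyp11a1. Macrophages live in the ovarian stroma and in corpora lutea, where they engulf dying cells and digest them in lysosomes.

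Levels are given as CPM, counts scaled to the same effective library total, in the order of replicates 1 to 4. Library totals were 34302357 to 42030986 estimated counts on 44% fat and 37957529.8 to 42681603 on 10% fat. Ovary markers were present in all 8 libraries: Zp3, a protein of the oocyte's coat, was at 31.9 to 46.2 CPM on 44% fat and 37.2 to 60.9 CPM on 10% fat, and Inha, the inhibin subunit of granulosa cells, at 1256 to 1488 and 781 to 2194 CPM on the same diets. One library stood apart. In 10% fat replicate 2, the 11 tested markers of oviduct epithelium, the lining of the tube beside the ovary, summed to 5293 CPM, against 57.5 to 73.9 CPM in the 44% fat libraries and 63.7 to 68.0 CPM in the other 10% fat libraries. Its 12 white adipocyte markers summed to 3035 CPM, and those of the other libraries to 798, 459, 112 and 164 CPM on 44% fat and 206, 134 and 126 CPM on 10% fat (replicates 1, 3 and 4). It also set the first principal component of the 8 libraries (59.8% of the variance), on which it scored 102 and the others between -22.3 and -3.89. The gene tests and list counts were therefore also run without it.

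Of 20189 genes tested, 126 changed on 44% fat, or 0.624% (edgeR quasi-likelihood test, adjusted p below 0.05), with 106 higher (0.525%) and 20 lower (0.0991%). That split moved with the libraries and the tool: 27 were higher and 1 lower without 44% fat replicate 2, 75 and 145 without 10% fat replicate 1, 103 and 104 without 10% fat replicate 4, and 349 and 264 with DESeq2. The median log2 fold change over all genes was -0.02, and 45.8% of genes were above 0. Of the 126 genes, 69 changed more than 2-fold, and in 115 the libraries of the diets did not overlap, against 5.88% of all genes. Calls and overlap rest on the same 8 libraries, so this count adds no separate support. No overlap was also a condition for naming genes by largest change or smallest p, so for those genes it is description only. Without 10% fat replicate 2, 117 genes passed (88 higher and 29 lower), 66 of them among the 126, and 125 of the 126 had the same direction; the remaining gene, Tmprss4, was too low to be tested. The spread of the other strains entered these tests: when only the 8 CAST/EiJ libraries were fitted, edgeR called 0 genes (1753 had an unadjusted p below 0.05) and DESeq2 called 394. The library identifiers fall into 3 number series, each with both diets, and 124 of the 126 genes changed in the same direction in each. The 126 were called on these same libraries, so this agreement was largely built in. The same holds for the agreement without 10% fat replicate 2. With the series as a term, 66 genes passed.

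**Figure D1:**
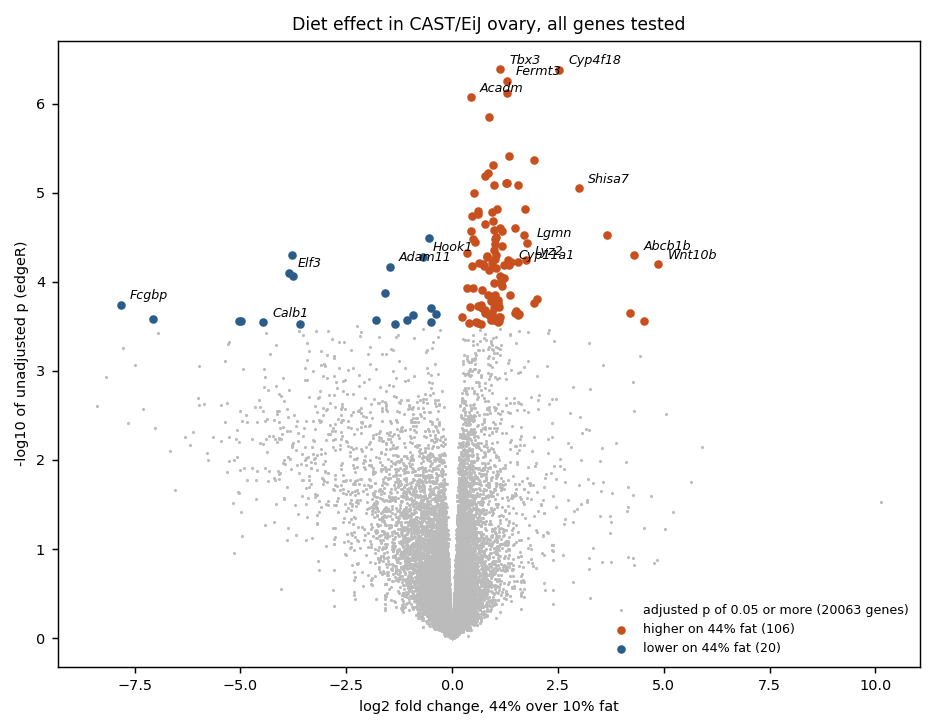
Log2 fold change (44% over 10% fat, horizontal axis) against -log10 of the unadjusted edgeR p (vertical axis) for each of 20189 genes. The 106 genes called higher are orange, with Wnt10b at 4.87 and Tbx3, among the smallest p, at 1.14; the 20 called lower are blue, with Calb1 at -4.46.

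The genes that rose peaked in different libraries. Of the 106, 64 were highest in 44% fat replicate 2, 25 in replicate 3, 14 in replicate 1 and 3 in replicate 4. Macrophage genes such as Lyz2 and C1qb belonged to the first set, Wnt10b, Abcb1b, Shisa7 and Cyp4f18 to the second, and Plekhg4 and Crybb1 to the third.

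The largest rise among genes of at least 5 CPM was that of Wnt10b, a secreted ligand of the Wnt pathway (GRCm38 chr15:98771753-98778150, minus strand), with 79.6, 19.1, 128 and 21.7 CPM on 44% fat, against 2.32, 0.516, 5.36 and 0.184 CPM on 10% fat. All 4 libraries on 44% fat lay above all 4 on 10% fat, a condition of the naming rule. Replicates 1 and 3 were highest within each diet. Its log2 fold change was 4.87 ± 0.96 (SE), with an edgeR adjusted p of 0.0219. Abcb1b, a P-glycoprotein pump that exports drugs and lipids, followed with 155, 38.6, 341 and 71.8 CPM on 44% fat, against 7.93, 11.6, 7.82 and 3.39 CPM on 10% fat, and again 44% fat replicate 3 was highest and the diets did not overlap (log2 fold change 4.30 ± 0.83, adjusted p 0.0219). Both calls depended on that library: without 44% fat replicate 3 the log2 fold changes were 4.24 for Wnt10b and 3.53 for Abcb1b, with adjusted p of 0.0534 and 0.0516. Wnt10b was also lost without 10% fat replicate 2 (adjusted p 0.0654), and its log2 fold change was 5.90 without 10% fat replicate 3.

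Shisa7, a membrane protein studied as a partner of neurotransmitter receptors, had 62.8, 21.8, 196 and 29.4 CPM on 44% fat, against 10.3, 11.2, 11.2 and 6.15 CPM on 10% fat. Cyp4f18, an enzyme that inactivates the inflammatory lipid leukotriene B4, had 36.9, 34.4, 65.2 and 38 CPM on 44% fat, against 6.36, 9.73, 9.66 and 4.36 CPM on 10% fat. In both genes 44% fat replicate 3 was highest and no 10% fat library reached the lowest 44% fat library. The log2 fold changes were 2.99 ± 0.50 and 2.54 ± 0.34, with adjusted p of 0.0113 and 0.0034, and both calls held in all 23 fits that left out 1 library. Without 44% fat replicate 3 the log2 fold change of Shisa7 was 1.97. Of the exon length of Cyp4f18, 9.8% overlaps Zfp961 on the opposite strand, and whether counting used strand is not stated.

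Single libraries carried other large rises. Plekhg4 had 196, 16.3, 42.5 and 20.1 CPM on 44% fat, against 3.1, 3.61, 7.32 and 0.867 CPM on 10% fat, and Crybb1, a crystallin known from the eye lens, had 14.6, 1.46, 2.44 and 2.42 CPM on 44% fat, against 0.469, 0.489, 0.422 and 0.263 CPM on 10% fat. In each the diets did not overlap, but 44% fat replicate 1 was far above the other 3. The log2 fold change of Plekhg4 was 4.20 ± 0.93 (adjusted p 0.0451) and 2.82 without that library (adjusted p 0.129); its call was lost in 17 of 23 leave-one-out fits. Crybb1 kept its call without that library, at a log2 fold change of 2.35 in place of 3.66 (adjusted p 0.0371 and 0.0187).

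**Figure D2:**
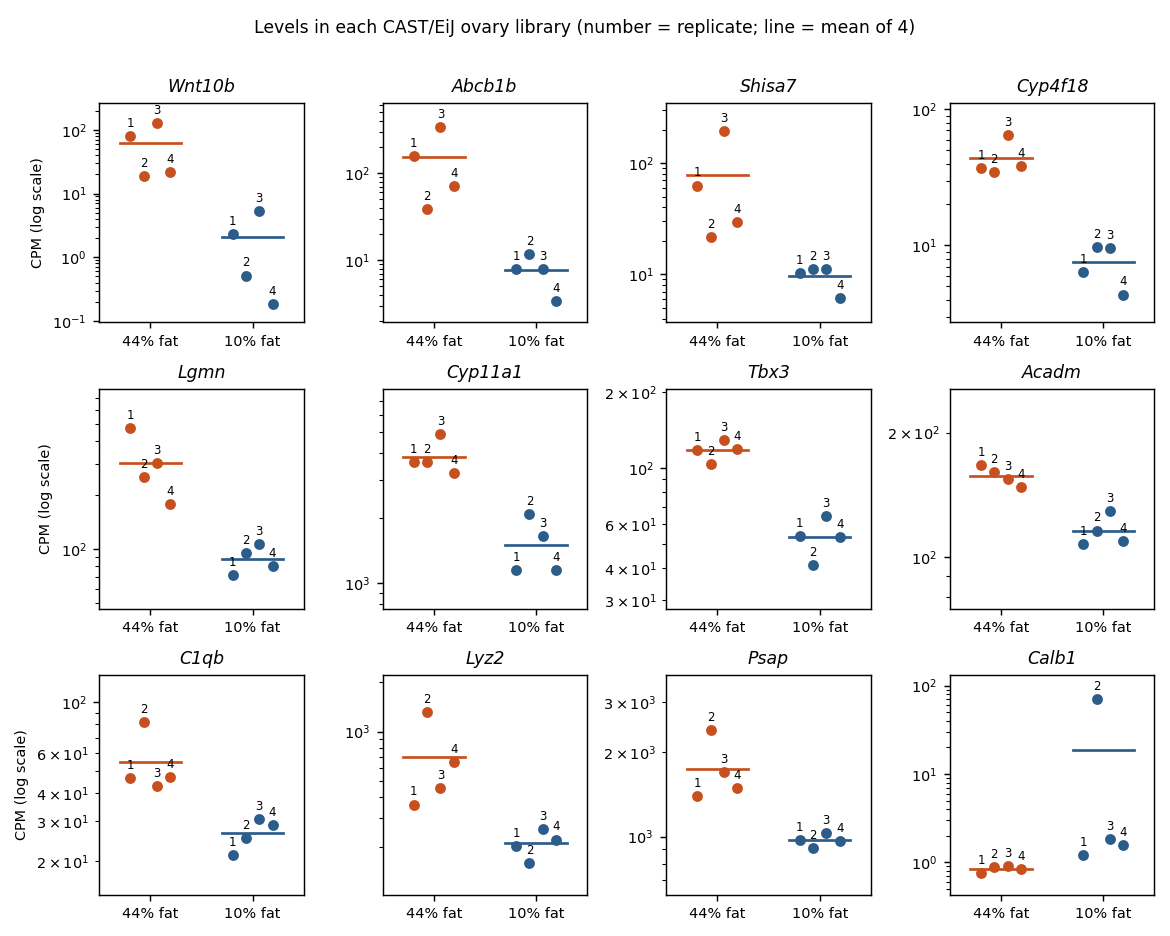
Levels of 12 genes in each CAST/EiJ library, in CPM on log axes that differ in range, with 44% fat in orange, 10% fat in blue, replicate numbers beside the points and lines at the means of 4. In Wnt10b, Abcb1b, Shisa7 and Cyp4f18 replicate 3 is highest on 44% fat, in C1qb, Lyz2 and Psap replicate 2 is highest, and in Calb1 only 10% fat replicate 2 stands apart.

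Cyp4f18, described above, was among the genes with the smallest p, and the others changed by smaller amounts. Tbx3, a T-box transcription factor (GRCm38 chr5:119670669-119684724, plus strand), was at 118, 103, 129 and 118 CPM on 44% fat, against 53.9, 41.1, 64.4 and 53.2 CPM on 10% fat, a narrow range within each diet with a gap between them. It rose 2.21-fold (log2 fold change 1.14 ± 0.16, adjusted p 0.0034). Tmem86a, which breaks down lysoplasmalogen lipids, was at 310.1, 253, 395 and 230.0 CPM on 44% fat, against 113, 90.9, 141 and 142 CPM on 10% fat and rose 2.44-fold with the same adjusted p. Acadm, a dehydrogenase that starts the oxidation of medium-chain fatty acids in mitochondria, was at 167, 160.3, 155 and 148 CPM on 44% fat, against 107, 116, 129 and 109 CPM on 10% fat. The lowest 44% fat library lay above the highest 10% fat library in each of these genes, and all kept their calls in the 23 leave-one-out fits. The rise of Acadm was only 1.36-fold. Tst, a mitochondrial sulfurtransferase that detoxifies cyanide, rose 1.8-fold, with 113, 127, 123 and 96.4 CPM on 44% fat, against 58.1, 46.9, 74.4 and 76 CPM on 10% fat. Cotl1, which binds actin filaments, rose 1.71-fold, with 59.6, 49.1, 41.7 and 34.9 CPM on 44% fat, against 24.3, 29.3, 26.5 and 28.2 CPM on 10% fat (adjusted p 0.011 for each). Neither overlapped between diets, and replicate 4 was the lowest on 44% fat in both.

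Most markers of resident macrophages were higher. Of 22 tested entries, 7 rose, 0 fell and 15 did not pass. Over all genes tested 0.525% rose, the share to set beside the count of each list below. Of the 22 entries, 17 had a log2 fold change above 0 (45.8% of all genes did). The median log2 fold change was 0.57 against -0.02 over all genes. In bulk tissue, more cells of a type and more RNA per cell cannot be told apart. C1qa, C1qb and C1qc, the chains of the complement protein C1q that macrophages secrete, rose 2.03-fold, 2.06-fold and 2.01-fold. C1qb had 46.5, 82.3, 42.9 and 47.1 CPM on 44% fat, against 21.4, 25.4, 30.7 and 29 CPM on 10% fat, and 44% fat replicate 2 stood far above the other 3, which still lay above the 10% fat libraries. Stab1, a scavenger receptor, was more even, with 131, 142, 135 and 119.7 CPM on 44% fat, against 75.6, 85.9, 96.8 and 84.8 CPM on 10% fat. Csf1r, the receptor for the growth factor that macrophages need, had 54.9, 90.2, 44.7 and 59.4 CPM on 44% fat, against 28, 29.5, 37.2 and 35.5 CPM on 10% fat. The mannose receptor Mrc1 rose 1.76-fold and the endosomal protein Cd68 2.16-fold. The list's score, a median over markers of log2 CPM relative to the median of the 23 libraries, was 0.11, 0.83, -0.15 and 0.08 on 44% fat and -0.80, -0.64, -0.36 and -0.38 on 10% fat, without overlap. The summed CPM of the same markers did overlap, at 554 to 865 on 44% fat and 355 to 827 on 10% fat.

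All these calls were lost without 44% fat replicate 2, in a fit that called 28 genes in all, against 126 with every library. Without replicate 2 the adjusted p were 0.0555 for Stab1, 0.0578 for C1qb and C1qc, 0.0646 for C1qa, 0.0837 for Mrc1 and Csf1r, and 0.16 for Cd68, with log2 fold changes of 0.59 to 0.81. The log2 fold change of Stab1 was 0.62 with all libraries and at least 0.57 in each leave-one-out fit. Cd68 was lost in 18 of its 23 leave-one-out fits (highest adjusted p 0.16, without 44% fat replicate 2). Csf1r was lost also without 10% fat replicate 2 (adjusted p 0.0538), and 15.1% of its exon length overlaps Hmgxb3 on the opposite strand. Fat tissue holds macrophages of its own. White adipocyte markers scored 4.53 and 3.72 in 44% fat replicates 1 and 2 and -0.40 and -0.02 in replicates 3 and 4. The library with the highest adipocyte score, 10% fat replicate 2 at 6.59, had a macrophage score of -0.64. The part of fat tissue in the macrophage values was not tested. Without that library 5 macrophage entries rose, with a median log2 fold change of 0.61, and the white adipocyte markers had a median of 1.99 in the same fit (0 of 12 passed).

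Genes of lipid-associated macrophages, the foamy cells that take up dying cells and fat, were also higher. Of 17, 4 rose, against 0.525% of all genes, 13 did not pass and the median was 0.84. Without 10% fat replicate 2, 0 passed and the median was 0.88. Lyz2, the lysozyme of myeloid cells (GRCm38 chr10:117277334-117282274, minus strand), reached 361, 1324, 455 and 659 CPM on 44% fat, against 202, 159.5, 258 and 222 CPM on 10% fat, with 44% fat replicate 2 highest by far and no overlap. Its neighbour Lyz1 had 11.9, 48.4, 18.6 and 27.1 CPM on 44% fat, against 7.16, 3.29, 10.2 and 6.96 CPM on 10% fat; the 2 genes are near-identical copies, so the split of reads between them is uncertain. Tyrobp, the adapter of activating myeloid receptors, rose 2.21-fold, and the lipid carrier Apoe was at 1100.5, 1777, 1199 and 1381 CPM on 44% fat, against 749, 699.8, 916 and 1003 CPM on 10% fat. The adjusted p were 0.0219 for Lyz2, 0.0405 for Lyz1, 0.0283 for Tyrobp and 0.0421 for Apoe. Without 44% fat replicate 2 they were 0.0837, 0.16, 0.0844 and 0.147, and none of the 4 passed without 10% fat replicate 2 either, with adjusted p of 0.0623, 0.0654, 0.0594 and 0.0869. Lyz1 and Apoe were each lost in 11 of 23 leave-one-out fits.

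Other receptors and signalling genes of leukocytes stood among the 106, grouped here after their values were seen. Fcgr3 and Fcgr2b, activating and inhibitory receptors for immunoglobulin G, rose 2.53-fold and 2.43-fold. Fcgr3 was at 23.7, 53.2, 24.5 and 26.9 CPM on 44% fat, against 10.4, 13.6, 13.1 and 13.6 CPM on 10% fat, with replicate 2 far above the other 44% fat libraries and all 4 above 10% fat. Fcer1g, the signalling chain shared by Fc receptors, rose 2.04-fold. Fermt3, the kindlin that activates integrins of blood cells, had 11.4, 14.5, 8.55 and 8.67 CPM on 44% fat, against 3.64, 4.59, 4.25 and 5.12 CPM on 10% fat, and the integrin chain Itgb2 rose 2.22-fold. The adjusted p was 0.0107 for Fcgr3, 0.0034 for Fermt3 and 0.0296 for Itgb2. Fcgr3, Fcgr2b and Fermt3 held in all 23 leave-one-out fits; without 44% fat replicate 2, Fcer1g was lost (adjusted p 0.0778), and Itgb2 was lost in 4 of its 23 leave-one-out fits (highest adjusted p 0.124, without 44% fat replicate 2).

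The next genes, regulators of the actin skeleton and of endosomal sensing in blood cells, were likewise picked from the 106 after their values were seen. Was, the Wiskott-Aldrich syndrome protein, had 3.02, 4.08, 2.44 and 3.32 CPM on 44% fat, against 1.27, 1.58, 1.46 and 0.946 CPM on 10% fat and rose 2.44-fold. Arhgap30 had 13.4, 16.5, 9.62 and 13.1 CPM on 44% fat, against 6.22, 6.6, 6.88 and 7.41 CPM on 10% fat and rose 1.94-fold. Nckap1l, a subunit of the WAVE complex of blood cells, rose 1.98-fold (adjusted p 0.011, 0.011 and 0.0296). In Was and Arhgap30 the diets did not overlap, and both calls held in the 23 leave-one-out fits; Nckap1l was lost in 4 of its 23 leave-one-out fits (highest adjusted p 0.118, without 44% fat replicate 2). The endosomal RNA sensors Tlr7 and Tlr8 rose 1.89-fold and 2.32-fold, and Unc93b1, which carries these receptors to endosomes, was at 49.8, 71.1, 43.4 and 48.6 CPM on 44% fat, against 27.8, 25.8, 34.1 and 28.3 CPM on 10% fat. Every 44% fat library of Unc93b1 exceeded every 10% fat library, and its adjusted p was 0.00473. The call of Tlr7 was lost in 17 of its 23 leave-one-out fits (highest adjusted p 0.16, without 44% fat replicate 2), and that of Tlr8 in 3 of its 23 leave-one-out fits (highest adjusted p 0.106, without 44% fat replicate 2).

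The following genes of the 106 were also put together after their values were seen. Ly9, a SLAM family receptor, had 8.39, 13.9, 6.2 and 6.67 CPM on 44% fat, against 2.51, 1.85, 2.88 and 3.55 CPM on 10% fat. Ptafr, the receptor for platelet-activating factor, had 17.2, 24.4, 11.5 and 15.8 CPM on 44% fat, against 6.8, 4.89, 8.61 and 7.07 CPM on 10% fat, and Pla2g7, the secreted enzyme that inactivates that lipid, had 22.2, 54.6, 19.7 and 29.5 CPM on 44% fat, against 11, 7.01, 11.6 and 12.8 CPM on 10% fat. In all 3 genes 44% fat replicate 2 was highest and the diets did not overlap. They rose 3.25-fold, 2.51-fold and 2.97-fold (adjusted p 0.0187, 0.0219 and 0.011). Pla2g7 held in all 23 leave-one-out fits, and 11% of its exon length overlaps another gene. Without 44% fat replicate 2 the adjusted p was 0.0671 for Ly9 and 0.0866 for Ptafr, which was lost also without 10% fat replicate 2 (0.0538). Cd300a and Cd300lb, an inhibitory and an activating receptor of myeloid cells, rose 2.25-fold and 2.83-fold; Cd300a was lost without 44% fat replicate 2 (adjusted p 0.0585), and Cd300lb in 14 of its 23 leave-one-out fits (highest adjusted p 0.16, without 44% fat replicate 2). AB124611, for which no role is given here, rose 2.58-fold and was lost in 5 of its 23 leave-one-out fits (highest adjusted p 0.139, without 44% fat replicate 2).

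None of the listed markers of lymphocytes and neutrophils passed. None of 15 T and NK cell markers, 8 B and plasma cell markers, 13 markers of MHC class II and dendritic cells or 5 tested neutrophil markers reached an adjusted p below 0.05. The summed T and NK cell markers were at 14.1 to 19.9 CPM on 44% fat and 12 to 19 CPM on 10% fat. Of 28 chemokines and cytokines 0 passed. Over all genes tested 0.624% passed, so 0 calls in lists this short do not set these lists apart. Ccl9, a chemokine of macrophages, was at 13.7, 34.2, 14.8 and 15.3 CPM on 44% fat, against 4.34, 7.96, 4.77 and 5.49 CPM on 10% fat, higher in every 44% fat library (adjusted p 0.0686). Cd22, a receptor of B cells that is in none of these lists and was chosen after its values were seen, had 1.09, 0.732, 2.05 and 0.674 CPM on 44% fat, against 0.422, 0.353, 0.447 and 0.315 CPM on 10% fat, without overlap. It rose 2.93-fold (adjusted p 0.0219), and the call was lost without 44% fat replicate 3 (adjusted p 0.0661) and without 10% fat replicate 2 (0.0519).

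Most lysosomal genes had log2 fold changes above 0, against 45.8% of all genes, and few passed. Over all genes 0.525% rose, and a single call, as in the membrane list below, is too few to set against that share. Of 16 lysosomal proteases 4 rose (median log2 fold change 0.35), of 27 lipases and glycosidases 3 rose with 25 above 0 (median 0.16), and of 31 genes of the membrane and the proton pump 1 rose with 27 above 0 (median 0.14). Without 10% fat replicate 2 the counts that rose were 5, 1 and 3, with medians of 0.45, 0.25 and 0.20. Lgmn, the lysosomal protease legumain, rose most, with 476, 253, 302 and 179 CPM on 44% fat, against 71.5, 95.2, 107 and 80.2 CPM on 10% fat, without overlap and with replicate 1 highest on 44% fat (adjusted p 0.0193). Its call was lost without that library (adjusted p 0.0514). Ctsd, the aspartic protease cathepsin D, had 888, 1333, 1044 and 846 CPM on 44% fat, against 552, 675, 602 and 568 CPM on 10% fat. Ctsa, which protects other lysosomal enzymes, had 182, 195, 203 and 164 CPM on 44% fat, against 133, 131, 141 and 134 CPM on 10% fat, and Ctsz, a carboxypeptidase, rose 1.4-fold. In each of these 3 the 10% fat libraries lay close together and below every 44% fat library.

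Among enzymes that digest lipids, Psap, the precursor of saposins that present lipids to hydrolases, was at 1389.9, 2379, 1696 and 1488 CPM on 44% fat, against 969.6, 913, 1028 and 963 CPM on 10% fat. Lipa, the acid lipase that frees cholesterol from lipoproteins, was at 149.8, 169, 147 and 128 CPM on 44% fat, against 95.5, 69.3, 98.9 and 91.9 CPM on 10% fat, and Hexa, a subunit of beta-hexosaminidase, rose 1.36-fold. The diets did not overlap in any of them. Man2b1, an alpha-mannosidase, was close to the threshold with 90.8, 107, 82.8 and 82.2 CPM on 44% fat, against 59.1, 50.2, 75.9 and 70.2 CPM on 10% fat (adjusted p 0.0547). Lamp1, a main protein of the lysosomal membrane, rose 1.28-fold. Slc36a1, an amino acid exporter of lysosomes, rose 1.39-fold; it is in none of these lists and was chosen after its values were seen. The adjusted p were 0.016 for Ctsa, 0.018 for Ctsd, 0.0187 for Ctsz, 0.0182 for Hexa, 0.0219 for Lipa and 0.036 for Psap. Without 44% fat replicate 2 they were 0.0555, 0.0585, 0.0652, 0.0593, 0.0837 and 0.136, and that of Lamp1 and Slc36a1 was 0.0837. Lipa was lost also without 10% fat replicate 2 (0.0579), Lamp1 without 44% fat replicate 3 (0.0646), and Psap in 8 of its 23 leave-one-out fits (highest adjusted p 0.136, without 44% fat replicate 2). Other genes overlap 34.4% of the exon length of Ctsd, 12.8% of Hexa and 10.5% of Ctsa, so their counts are uncertain.

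Promoter windows of RefSeq (build GRCm38.p6, 250 bases before to 50 after each gene start) were found for 86 of the 106 genes that rose. The lysosomal motif CLEAR, to which the factor TFEB binds, was searched as TCACGTGA, which reads the same on both strands, and the motif of PU.1, a factor of myeloid cells, as GAGGAAGT on both strands. CLEAR letters stood in the windows of 4 of the 86 genes, or 4.65%, against 1.82% of the tested genes with a window. PU.1 letters stood in 8, or 9.3%, against 3.72%, and the site of the steroid factor SF-1, CAAGGTCA, in 3, or 3.49%, against 1.49%. Among listed genes with a window, including genes that did not pass, CLEAR letters stood in 2 of 11 lysosomal proteases. They stood in 1 of 21 lysosomal lipases and glycosidases and 5 of 25 genes of the lysosomal membrane. PU.1 letters stood in 1 of 13 resident macrophage markers and 2 of 13 genes of lipid-associated macrophages. SF-1 letters stood in 0 of 11 genes of steroid synthesis and 0 of 6 luteal markers. The 3 genes that rose and held SF-1 letters were Cd84, Cryba4 and Psap. A match describes the letters and does not show binding. The windows below are shown because they belong to lysosomal and macrophage genes that rose and hold CLEAR or PU.1 letters on either strand. These letters are in capitals and the others in lower case, 5′ to 3′ on the gene's strand.
Ctsa (chr2:164833523-164833822, plus strand): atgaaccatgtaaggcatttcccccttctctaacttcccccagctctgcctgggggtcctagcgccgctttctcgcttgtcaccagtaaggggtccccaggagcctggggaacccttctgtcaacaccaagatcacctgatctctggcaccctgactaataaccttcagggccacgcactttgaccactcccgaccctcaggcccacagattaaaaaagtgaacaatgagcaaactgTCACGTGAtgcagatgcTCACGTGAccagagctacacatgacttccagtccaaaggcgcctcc
Ctsd (chr7:142387778-142388077, minus strand): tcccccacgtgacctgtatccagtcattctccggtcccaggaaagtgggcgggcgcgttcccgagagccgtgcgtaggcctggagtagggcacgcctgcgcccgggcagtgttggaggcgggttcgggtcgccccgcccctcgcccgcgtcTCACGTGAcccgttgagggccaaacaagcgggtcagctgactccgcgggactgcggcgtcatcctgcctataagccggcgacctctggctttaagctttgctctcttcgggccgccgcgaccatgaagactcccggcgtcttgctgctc
Slc36a1 (chr11:55204090-55204389, plus strand): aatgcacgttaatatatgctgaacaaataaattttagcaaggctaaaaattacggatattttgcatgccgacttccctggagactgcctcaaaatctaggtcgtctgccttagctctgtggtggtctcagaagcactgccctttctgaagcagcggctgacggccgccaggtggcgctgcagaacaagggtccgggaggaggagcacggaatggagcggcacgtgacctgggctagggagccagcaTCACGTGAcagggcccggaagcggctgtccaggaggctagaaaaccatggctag
C1qc (chr4:136892865-136893164, minus strand): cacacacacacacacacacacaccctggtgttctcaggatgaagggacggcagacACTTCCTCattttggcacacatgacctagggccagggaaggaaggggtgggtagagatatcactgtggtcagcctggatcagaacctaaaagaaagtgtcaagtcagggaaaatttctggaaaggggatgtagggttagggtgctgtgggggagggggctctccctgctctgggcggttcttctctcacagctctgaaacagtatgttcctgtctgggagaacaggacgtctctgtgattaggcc
Pld4 (chr12:112760405-112760704, plus strand): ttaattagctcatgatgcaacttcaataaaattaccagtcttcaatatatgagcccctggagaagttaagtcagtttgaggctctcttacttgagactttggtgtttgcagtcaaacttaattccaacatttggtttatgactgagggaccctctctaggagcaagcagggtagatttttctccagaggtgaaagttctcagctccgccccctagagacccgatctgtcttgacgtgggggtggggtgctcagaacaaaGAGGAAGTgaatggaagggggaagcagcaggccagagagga
Relative to the gene start, CLEAR begins at -13 and again at 5 in Ctsa, at -99 in Ctsd and at -4 in Slc36a1. PU.1 letters begin at -195 in C1qc, on the opposite strand, and at 10 in Pld4, an endosomal nuclease that rose 1.95-fold and whose call was lost without 44% fat replicate 2 (adjusted p 0.0585).

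**Figure D3:**
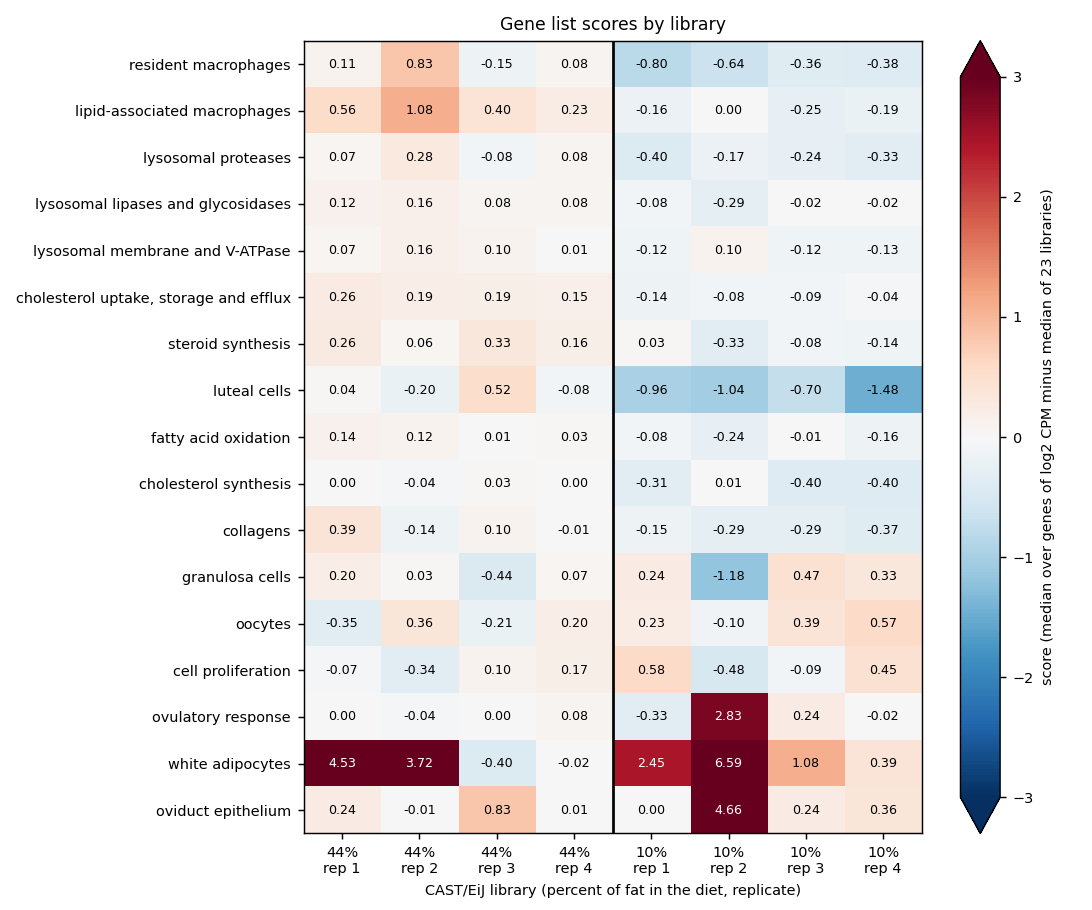
Scores of 17 gene lists (rows) in the 8 CAST/EiJ libraries (columns, 44% fat left of the line), as the median over genes of log2 CPM minus the median of all 23 libraries; colours are capped at -3 and 3 and the values are printed. In the macrophage, lysosomal enzyme, cholesterol uptake, steroid, luteal, fatty acid oxidation and collagen lists every 44% fat library scores above every 10% fat library. The gap is narrow for collagens (-0.14 against -0.15). The oviduct score of 10% fat replicate 2 is 4.66.

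Genes that handle cholesterol and make steroids were also among those that rose. Of 20 genes of cholesterol uptake, storage and efflux, 3 rose (Abcg1, Lipa and Apoe), against 0.525% of all genes, with a median log2 fold change of 0.33. Without 10% fat replicate 2, 1 of 20 rose and the median was 0.42. Abcg1, which exports cholesterol to lipoproteins, had 32.5, 57.3, 29.8 and 32.1 CPM on 44% fat, against 16, 18.4, 19.8 and 20.7 CPM on 10% fat, with replicate 2 highest on 44% fat and no overlap (adjusted p 0.0193, or 0.0636 without that library). Scarb1, the receptor that takes cholesterol from high density lipoprotein, had 639, 646, 1036 and 606 CPM on 44% fat, against 384, 373, 319 and 492 CPM on 10% fat. Every 44% fat library of Scarb1 was above every 10% fat library, with replicate 3 highest, but its adjusted p was 0.0792. Of 23 genes of cholesterol synthesis 20 had a log2 fold change above 0 (median 0.34), against 45.8% of all genes, and 0 passed.

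Of 16 genes of steroid synthesis 2 rose, against 0.525% of all genes, and 14 did not pass, with a median of 0.52. Cyp11a1, which cuts the side chain of cholesterol (GRCm38 chr9:58006411-58027023, plus strand), had 3646, 3624, 4923 and 3222 CPM on 44% fat, against 1149.6, 2083, 1646 and 1155 CPM on 10% fat, a gap between diets in which 10% fat replicate 2 was the nearest. Fdx1, the ferredoxin that hands electrons to Cyp11a1, had 411, 617, 599 and 437 CPM on 44% fat, against 229, 326, 331 and 197 CPM on 10% fat, also without overlap. Their log2 fold changes were 1.35 ± 0.27 and 0.93 ± 0.20, with adjusted p of 0.0219 and 0.0397. Fdxr, the reductase that feeds Fdx1, was at 273, 227, 363 and 224 CPM on 44% fat, against 157, 173, 168 and 164 CPM on 10% fat (adjusted p 0.104). Hsd3b1, which makes progesterone and has near copies in the genome that make its count uncertain, overlapped between diets, with 5261, 6437, 5282 and 6045 CPM on 44% fat, against 5268, 1775, 4908 and 4560.4 CPM on 10% fat, and its only low library was 10% fat replicate 2. Cyp11a1 was lost without 44% fat replicate 2 (adjusted p 0.0585) and without replicate 3 (0.0669), and Fdx1 in 9 of its 23 leave-one-out fits (highest adjusted p 0.13, without 44% fat replicate 2). Without 10% fat replicate 2 the median of the list was 0.24 and the same count of 2 rose.

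Markers of luteal cells had a median log2 fold change of 1.18, and 0 of 8 passed; without 10% fat replicate 2, 1 rose and the median was 1.13. Ptgfr, the receptor through which prostaglandin F2-alpha ends the life of a corpus luteum, was at 206, 43.7, 138 and 55.6 CPM on 44% fat, against 12.5, 14.3, 31.2 and 3.39 CPM on 10% fat. Akr1c18, which inactivates progesterone, was at 634, 182, 120.1 and 255 CPM on 44% fat, against 30.7, 2.47, 90.8 and 2.65 CPM on 10% fat. The diets did not overlap in either, with replicate 1 highest on 44% fat in both, but the spread within each diet was large (adjusted p 0.0936 and 0.138). Sfrp4, a secreted inhibitor of Wnt signals found in luteal cells, overlapped through 10% fat replicate 2 alone, with 303, 24, 208 and 24.6 CPM on 44% fat, against 4.76, 53.1, 7.75 and 3.68 CPM on 10% fat; without that library it passed (log2 fold change 4.69, adjusted p 0.0387). The luteal score was 0.04, -0.20, 0.52 and -0.08 on 44% fat and -0.96, -1.04, -0.70 and -1.48 on 10% fat. By this median score 44% fat replicate 3 was highest, the library in which Abcb1b, Wnt10b and Shisa7 peaked. Single luteal markers differed: Scarb1 was highest in replicate 3, but Ptgfr, Akr1c18 and Sfrp4 were highest in replicate 1. Of the 44% fat libraries, replicate 3 was the lowest in Akr1c18. The part of cycle stage or number of corpora lutea in these values was not tested.

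Mitochondrial genes stood beside the steroid genes among the 106, again grouped after their values were seen. Mgarp, which is abundant in mitochondria of steroid-making cells, had 499, 475, 872 and 390.5 CPM on 44% fat, against 249.2, 306, 257 and 224 CPM on 10% fat. Efhd1, a calcium-binding mitochondrial protein, had 140.4, 98.4, 190.0 and 100.3 CPM on 44% fat, against 71.9, 70.9, 67.7 and 48.2 CPM on 10% fat, and Dnajc15, a cochaperone of mitochondrial import, had 57.3, 69.1, 72 and 61.2 CPM on 44% fat, against 33.1, 33.3, 34.8 and 29.6 CPM on 10% fat. Mgarp and Efhd1 were highest in 44% fat replicate 3, and none of the 3 overlapped between diets. They rose 2.16-fold, 2.04-fold and 1.98-fold. Dnajc15 held in all 23 leave-one-out fits (adjusted p 0.011), Efhd1 was lost in 2 of its 23 leave-one-out fits (highest adjusted p 0.0752, without 44% fat replicate 3) and Mgarp in 13 of its 23 leave-one-out fits (highest adjusted p 0.13, without 44% fat replicate 3). Of 26 fatty acid oxidation genes only Acadm passed, though 22 were above 0 (median 0.21), against 45.8% of all genes. A single call is too few to set against the 0.525% of all genes that rose. Eci1 and Acaa2, enzymes of the same pathway, were at 39.8 and 199 CPM on 44% fat, against 32.4 and 152 CPM on 10% fat (adjusted p 0.12 and 0.155).

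Of 42 Wnt genes 2 rose, Wnt10b and Wnt4, against 0.525% of all genes, and the list's median was 0.01. Without 10% fat replicate 2, 0 of 41 passed. Wnt4, a ligand needed for ovary development and fertility, had 208, 95.3, 277 and 94.3 CPM on 44% fat, against 54, 42.7, 77.3 and 52 CPM on 10% fat, without overlap and with replicates 1 and 3 highest on 44% fat. Its adjusted p of 0.0454 was close to the threshold, and the call was lost in 17 of its 23 leave-one-out fits (highest adjusted p 0.137, without 44% fat replicate 3). The pathway's target genes Axin2 and Lef1 were higher in every 44% fat library without passing, Axin2 at 52.2, 33.8, 47 and 38.1 CPM on 44% fat, against 22, 32, 27.6 and 25.9 CPM on 10% fat and Lef1 at 4.66 and 2.7 CPM on average on 44% and 10% fat (adjusted p 0.0977 and 0.0944). Of 33 ABC transporters 3 rose: Abcb1b, Abcg1 and Abcg3, which had 0.851, 1.74, 0.701 and 0.849 CPM on 44% fat, against 0.258, 0.299, 0.199 and 0.315 CPM on 10% fat. Abcg3 held in all 23 leave-one-out fits (adjusted p 0.0107).

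Of 18 Cyp4f and leukotriene genes 3 rose (median 0.13), against 0.525% of all genes, or 2 without 10% fat replicate 2 (median 0.49). Besides Cyp4f18 these were Cyp4f14, a fatty acid hydroxylase, with 4.55, 4.97, 9.03 and 4.32 CPM on 44% fat, against 1.64, 1.39, 2.28 and 1.58 CPM on 10% fat, and Ggt5, which converts leukotriene C4 to D4, with 29.8, 33.6, 53.2 and 24.8 CPM on 44% fat, against 18.3, 17.4, 21 and 17.4 CPM on 10% fat. Both were highest in 44% fat replicate 3, and neither overlapped between diets (adjusted p 0.0156 and 0.0451). Cyp4f14 held in all 23 leave-one-out fits and Ggt5 was lost in 14 of its 23 leave-one-out fits (highest adjusted p 0.134, without 44% fat replicate 3). Among 21 antioxidant genes 1 rose (2 without 10% fat replicate 2), Gpx3, a secreted glutathione peroxidase, with 224, 184, 254 and 133 CPM on 44% fat, against 57, 88, 89.8 and 69.7 CPM on 10% fat (adjusted p 0.0219). The ranges of Gpx3 did not overlap, yet the call was lost without 44% fat replicate 1 (0.0524), replicate 2 (0.0585) or replicate 3 (0.0646). Txndc2, a thioredoxin known from sperm, rose 2.78-fold and was lost in 15 of its 23 leave-one-out fits (highest adjusted p 0.13, without 44% fat replicate 3).

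Of the 20 genes that fell, 10 were highest in 10% fat replicate 2, 3 each in replicates 1 and 3, and 4 in replicate 4. Adam11, a membrane protein of the ADAM family without protease activity (GRCm38 chr11:102761439-102780262, plus strand), was at 22.1, 20.7, 6.37 and 24.1 CPM on 44% fat, against 38.5, 45.7, 53.8 and 65.3 CPM on 10% fat. No library overlapped, and 44% fat replicate 3 was lowest. Its log2 fold change was -1.47 ± 0.29 (adjusted p 0.0219). Of 36 matrix proteases and inhibitors, the list that holds Adam11, 0 rose and 1 fell, against 0.525% and 0.0991% of all genes. Hook1, a linker between vesicles and microtubules, was at 15.7, 12.8, 15.6 and 18.7 CPM on 44% fat, against 26.2, 28.9, 21.2 and 24.1 CPM on 10% fat, and Rcan3, a regulator of calcineurin, at 20.1, 18, 16.5 and 17.5 CPM on 44% fat, against 23.5, 22, 25.6 and 22 CPM on 10% fat. Both were lower in each 44% fat library than in any 10% fat library, by small amounts (log2 fold changes -0.68 ± 0.13 and -0.37 ± 0.08, adjusted p 0.0219 and 0.0454). Without 44% fat replicate 2 the adjusted p was 0.063 for Adam11 and 0.0866 for Hook1, and Rcan3 was lost in 14 of its 23 leave-one-out fits (highest adjusted p 0.13, without 44% fat replicate 3).

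The other genes that fell included 9 grouped as epithelial after their values were seen, of which 7 were highest in 10% fat replicate 2 and 2 in replicate 3. Calb1, a calcium-binding protein, was at 0.754, 0.884, 0.897 and 0.849 CPM on 44% fat, against 1.2, 70.1, 1.81 and 1.55 CPM on 10% fat. Only 10% fat replicate 2, the library rich in oviduct RNA, was high, though every 10% fat library lay above every 44% fat library. Without that library its log2 fold change was -0.85 in place of -4.46 (adjusted p 0.254 and 0.0473). Slc28a3, a nucleoside transporter, had the same pattern, with 0.0243, 0.152, 0.14 and 0.0749 CPM on 44% fat, against 0.282, 11.4, 0.844 and 0.368 CPM on 10% fat, and was lost without that library (adjusted p 0.171, log2 fold change -2.35 in place of -5.02). Elf3, a transcription factor of epithelia, was at 1.14, 1.07, 1.01 and 1.12 CPM on 44% fat, against 0.633, 40.6, 19.4 and 2.6 CPM on 10% fat, high in 10% fat replicates 2 and 3, and overlapped between diets. Fcgbp, a mucus protein, was at 0.0243, 0, 0.028 and 0.125 CPM on 44% fat, against 0, 4.84, 40.0 and 0.105 CPM on 10% fat, highest in 10% fat replicate 3. That library's oviduct markers summed to 68 CPM, within the range of the libraries other than replicate 2. The tight junction gene Cldn4, the zinc importer Slc39a4 and the protease Tmprss4 were likewise highest in 10% fat replicates 2 and 3. Tmprss4 was at 0, 0, 0 and 0.0749 CPM on 44% fat, against 0.0235, 5.03, 7.35 and 0 CPM on 10% fat (adjusted p 0.0473). The calls were fragile: among 23 leave-one-out fits they were lost in 19 for Calb1 and Slc39a4, 16 for Slc28a3, 15 for Fcgbp, 7 for Cldn4 and 5 for Elf3, and in 17 of 20 for Tmprss4. Elf3 did not pass without 10% fat replicate 2 (log2 fold change -2.79 in place of -3.86, adjusted p 0.065), while the call of Fcgbp held without it and was lost without replicate 3 (adjusted p 0.0764).

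None of the listed markers of other ovarian compartments passed with all 8 libraries. Of 14 granulosa markers, 10 markers of theca cells and hedgehog signalling, and 20 oocyte markers, 0 passed, with medians of -0.19, -0.31 and -0.30. Of 26 proliferation genes 0 passed and 2 were above 0, with a median of -0.22. Over all genes, 45.8% were above 0 and 0.624% passed, so 0 calls in lists this short do not set these lists apart. Without 10% fat replicate 2 the medians were -0.49, -0.30 and -0.43, with 1 theca marker lower and no other call, and that of proliferation was -0.38. Of 14 endothelial markers 0 passed and 12 were above 0 (median 0.14, or 0.17 without that library). The endothelial score was 0.00, 0.14, 0.06 and -0.09 on 44% fat and -0.25, -0.24, -0.30 and -0.16 on 10% fat, without overlap. Of 21 collagens 0 passed although 18 were above 0 (median 0.25). Of these 21, 7 did not overlap between diets, or 33.3%, against 5.88% of all genes. Genes of the ovulatory response were high in 1 library, and 0 of 13 passed. Ptgs2, the enzyme that makes prostaglandins at ovulation, was at 0.146, 0.244, 0.14 and 0.275 CPM on 44% fat, against 0.117, 16.4, 1.19 and 0.184 CPM on 10% fat, and Tnfaip6, which organises the matrix around the ovulated egg, was at 0.876, 0.427, 0.308 and 0.30 CPM on 44% fat, against 0.54, 12.6, 0.348 and 0.447 CPM on 10% fat. In both, 10% fat replicate 2 alone was high, and the score of the list was 2.83 there against -0.33 to 0.24 in the other 7 libraries.

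Leaving out 10% fat replicate 2 brought 51 further genes past the threshold, 31 higher and 20 lower; the genes named here were chosen after their values were seen. Ephx2, the soluble epoxide hydrolase, was at 429, 94.9, 640.4 and 91.8 CPM on 44% fat, against 35.9, 606, 47.9 and 17.8 CPM on 10% fat. With all libraries its log2 fold change was 0.83 (adjusted p 0.728), and without replicate 2 it was 3.21 (0.0387). Adam8, a metalloprotease of leukocytes, turned round, with 20.7, 43.8, 23.4 and 20.4 CPM on 44% fat, against 9.62, 197, 14.1 and 12.3 CPM on 10% fat: its log2 fold change was -1.11 with all libraries and 1.17 without that library (adjusted p 0.503 and 0.0387). The apolipoprotein Apoc1 and Lpcat2, an enzyme that makes platelet-activating factor, rose in that fit with log2 fold changes of 1.43 and 1.86. The junction protein Jam2 and the kinase Pdk1, which restrains pyruvate oxidation, fell by 0.57 and 0.53 on the log2 scale. Gjb2, a gap junction protein, passed as lower, but it was at 0.997, 0.975, 0.897 and 0.899 CPM on 44% fat, against 1.52, 1.06, 25.5 and 1.29 CPM on 10% fat, with 10% fat replicate 3 far above the rest (log2 fold change -0.46 without it, against -2.96 with all libraries).

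**Figure D4:**
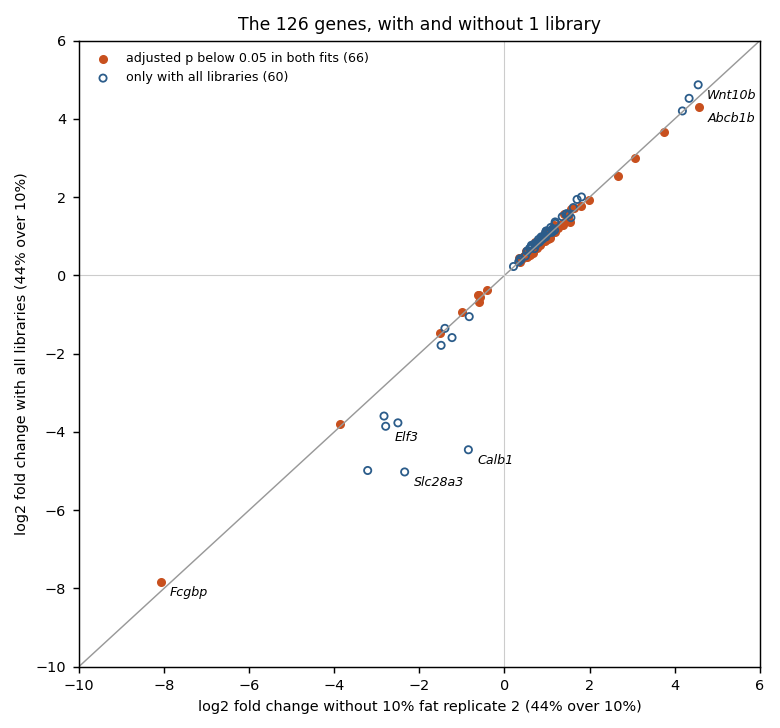
Log2 fold changes (44% over 10% fat) of the genes called with all libraries, without 10% fat replicate 2 (horizontal axis) and with it (vertical axis); the line marks equal values, and Tmprss4 is not drawn because it could not be tested without that library. The 66 filled points passed in both fits, and Calb1 and Slc28a3 lie farthest below the line.

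The diet effect in CAST/EiJ was compared with that in the other strains. Over all genes the difference from the effect in C57BL/6J passed for 124 genes, or 0.614% (114 higher in CAST/EiJ, or 0.565%, and 10 lower, or 0.0495%), and that from NZO/HlLtJ for 3 genes, or 0.0149%; the 3 were Tbx3, Tst and Cotl1. With the identifier series as a term, 49 genes differed from C57BL/6J and 0 from NZO/HlLtJ. When 1 library was left out, the count for NZO/HlLtJ ranged from 0 to 11 and was 0 in 15 of 23 fits. For C57BL/6J it ranged from 8 without that strain's 10% fat replicate 1 to 877 without its 10% fat replicate 2. All these comparisons share the 8 CAST/EiJ libraries. For Tbx3 the diet effect in CAST/EiJ exceeded that in C57BL/6J by 1.30 ± 0.23 and that in NZO/HlLtJ by 1.39 ± 0.22 on the log2 scale (adjusted p 0.0179 and 0.0432). Its levels were 117 ± 10.7 CPM on 44% fat and 53.2 ± 9.54 CPM on 10% fat in CAST/EiJ (SD, n = 4 each). They were 102 ± 22.9 and 114 ± 12.7 CPM on 44% and 10% fat in C57BL/6J (n = 4 and 3), and 123 ± 10.9 and 146 ± 27.7 CPM in NZO/HlLtJ (n = 4 each). Only the CAST/EiJ group on 10% fat stood below the others. For Acadm the excess over C57BL/6J was 0.61 ± 0.09 (adjusted p 0.0118) and over NZO/HlLtJ 0.47 ± 0.09 (0.0787). For Lyz2 the differences were 2.35 ± 0.49 (0.0371) and 1.65 ± 0.47 (0.225). For Wnt10b neither passed, at 5.05 ± 1.24 (0.0618) and 4.69 ± 1.21 (0.179).

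Among the 106 genes that rose, CAST/EiJ on 10% fat had the lowest mean of the 6 groups in 68, or 64.2%, and CAST/EiJ on 44% fat the highest in 44, or 41.5%. Over all genes tested the shares were 19.3% and 16.2%; choosing genes that rose in CAST/EiJ raises both, so no test was made. Tmem86a, for example, averaged 297 CPM on 44% fat and 122 CPM on 10% fat in CAST/EiJ. In C57BL/6J and NZO/HlLtJ its 4 group means lay between 369.7 and 474 CPM. Cyp4f18 had the reverse order of strains, with 43.6 CPM on 44% fat and 7.53 CPM on 10% fat in CAST/EiJ and at most 2.28 CPM in any group of the other strains. Reads of CAST/EiJ differ more from the reference genome than those of C57BL/6J, and the part of this in levels between strains was not tested.

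**Figure D5:**
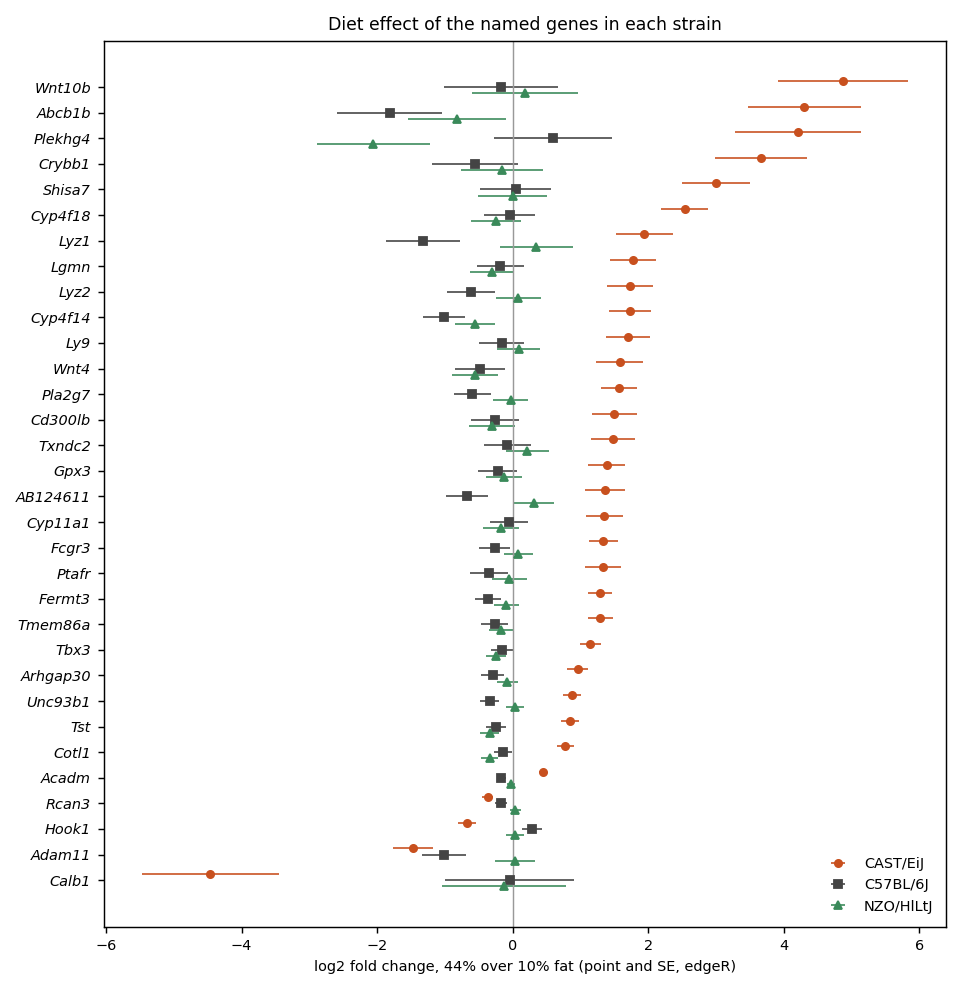
Diet effect (log2 fold change, 44% over 10% fat, point and SE) of 32 genes in CAST/EiJ (orange circles), C57BL/6J (grey squares) and NZO/HlLtJ (green triangles). The CAST/EiJ points run from 4.87 for Wnt10b to -4.46 for Calb1.

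At the edge of the threshold, Lcp2 and Adap2 were the last genes inside, both with an adjusted p of 0.0478, and Mab21l3 and Akr1c13 the first outside, with 0.050 and 0.0527. Adap2, for example, was at 7.1, 7.32, 7.38 and 7.37 CPM on 44% fat, against 4.34, 3.61, 5.19 and 4.94 CPM on 10% fat, and Akr1c13, just outside, at 4.55, 4.94, 5.05 and 5.25 CPM on 44% fat, against 7.37, 10.1, 6.18 and 8.09 CPM on 10% fat; neither overlapped between diets.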

How the data were processed

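Ovary RNA was poly(A) selected, prepared with a KAPA mRNA kit and sequenced as paired reads, per the labels' protocols. The values analysed were estimated counts per gene in the authors' deposited table, with 24716 genes in 23 libraries; 27.4% of values were not whole. The authors also deposited log2 variance-stabilised values, used as an alternative. The submitters' processing notes name GRCm38 and DESeq2; aligner, counter and strand setting are not given in the sources used here. Spike-in RNA was added per the labels' protocols and no spike-in rows were used here. Other columns of the deposited annotation gave gene symbols and positions.

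Counts were rounded and filtered with edgeR's filterByExpr (minimum count 10, minimum total 15), which kept 20189 genes. They were scaled by TMM and fitted with the quasi-likelihood model over 6 groups of strain and diet in all 23 libraries. P-values were adjusted by the Benjamini-Hochberg method across the 20189 genes and called below 0.05. Each SE was derived as the absolute log2 fold change over the root of the F statistic. On simulated counts the fit recovered 72% and 68% of genes changed by 1 log2 unit up and down, and 90% and 100% of those changed by 2. The changed genes were drawn from well-counted genes only, and no simulated library was made to stand apart. Recovery in the real data can therefore be lower. The software was edgeR 4.0.16, DESeq2 1.42.0 and limma 3.58.1 under R 4.3.3. No pair of CAST/EiJ libraries of 1 diet looked like the same library (chi-square over degrees of freedom between 23.0 and 219.7).

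The members, gene lists and tests were chosen with earlier results of these data known. Genes were named by rule: among called genes with at least 5 CPM in the higher group, no overlap between diets and a symbol that is no clone name, the 20 largest rises, the falls (4 met these terms) and the 10 smallest p; the 2 genes on each side of the threshold; and from each list described up to 8 called genes, filled up to 4 by smallest p where fewer passed. AB124611 was kept because its name met the rule. Genes grouped after their values were seen are marked so. Itgam stands in the table under 2 identifiers, and both were counted. Alternatives were DESeq2, RLE scaling, no filter, the identifier series as a term, limma with library weights, limma on the variance-stabilised values, the CAST/EiJ libraries alone, leaving out each library, and leaving out both libraries rich in oviduct RNA. DESeq2 without 10% fat replicate 2 and edgeR on the other 7 CAST/EiJ libraries were added after the data were seen.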

Additional observations from a re-analysis of the deposited data

Results flagged for a closer look

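In a group of 4 libraries, a library was picked out when its gap to the nearest other exceeded the 95% critical value of Dixon's test. For normally distributed values, chance picks out about 1 in 20 groups. Here 32 of 230 gene groups, or 13.9%, and 9 of 80 groups of list scores, or 11.25%, were picked out. Gene levels were tested as CPM without logs, and genes of 1 library are not independent. The genes tested were picked for the report, some after their values were seen, so their share cannot be set against chance. On 44% fat, replicate 1 stood apart in Plekhg4 (196 CPM), Crybb1 (14.6 CPM) and Lef1 (6.57 CPM). Replicate 2 stood apart in Cd300lb (12.1 CPM), AB124611 (11.9 CPM), Fcgr3 (53.2 CPM), C1qb (82.3 CPM), C1qa (89.4 CPM), Abcg1 (57.3 CPM), Abcg3 (1.74 CPM), Ccl9 (34.2 CPM), Ccl6 (19.8 CPM), Itgb2 (26.1 CPM) and Adam8 (43.8 CPM). Replicate 3 did so in Cyp4f18 (65.2 CPM), Cyp4f14 (9.03 CPM) and Scarb1 (1036 CPM), and replicate 4 in Tmprss4 (0.0749 CPM). On 10% fat, replicate 2 stood apart in Calb1 (70.1 CPM), Atp6v0b (68.3 CPM), Sfrp4 (53.1 CPM), Ptgs2 (16.4 CPM), Btc (19.8 CPM), Tnfaip6 (12.6 CPM), Ptx3 (16.3 CPM), Ccl6 (5.54 CPM), Slc28a3 (11.4 CPM), Ephx2 (606 CPM) and Adam8 (197 CPM). Replicate 3 of that diet did so in Fcgbp (40.0 CPM) and Gjb2 (25.5 CPM), and replicate 4 in Fcer1g (6.75 CPM).

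Of the list scores, those of oviduct epithelium (4.66), fatty acid synthesis and desaturation (0.87), lipid droplets and lipolysis (0.54), immediate early genes (0.0224), the lysosomal membrane (0.0985) and granulosa cells (-1.18) stood apart in 10% fat replicate 2. On 44% fat, the score of T and NK cells in replicate 4 (-0.50), of Wnt genes in replicate 1 (0.13) and of lipid droplets in replicate 4 (0, the level of the median library) stood apart.

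The diet effect in CAST/EiJ differed from that in C57BL/6J, by edgeR's test of the difference, for the following named genes, given as the difference in log2 fold change: Abcb1b (6.12), Crybb1 (4.22), Cyp4f18 (2.58), Lyz1 (3.27), Lyz2 (2.35), Cyp4f14 (2.74), Pla2g7 (2.16), AB124611 (2.04), Fcgr3 (1.61), Ptafr (1.68), Hook1 (-0.96), Tbx3 (1.3), Fermt3 (1.65), Tmem86a (1.56), Acadm (0.61), Unc93b1 (1.21), Arhgap30 (1.25), Tst (1.1) and Cotl1 (0.92). It differed from that in NZO/HlLtJ for Tbx3 (1.39), Tst (1.19) and Cotl1 (1.11).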

How the results depend on the processing

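The diet effect in CAST/EiJ counted 126 genes, and the difference of that effect from C57BL/6J and from NZO/HlLtJ counted 124 and 3. In the same order, DESeq2 called 613, 851 and 195 genes, the identifier series as a term left 66, 49 and 0 (edgeR; 2033 genes of the last had an unadjusted p below 0.05), and limma with library weights called 220, 1312 and 195. Limma on the deposited variance-stabilised values called 78 for the diet effect. With the 8 CAST/EiJ libraries alone edgeR called 0 (1753 at an unadjusted p below 0.05) and DESeq2 394. Without both libraries highest in oviduct RNA the differences from C57BL/6J and NZO/HlLtJ counted 30 and 5. The settings chosen after the data were seen gave 607, 1051 and 460 for DESeq2 without 10% fat replicate 2, and 3 for edgeR on the other 7 CAST/EiJ libraries. Leaving out 1 library gave 28 to 220, 8 to 877 and 0 to 11 genes; the low of 28 came without 44% fat replicate 2 and the high of 220 without 10% fat replicate 1. The causes of these differences were not tested. Directions turned for Tnfaip6 and Adam8. Tnfaip6, at -2.84 on the log2 scale, was at 0.11 without both oviduct-rich libraries and in DESeq2 without 10% fat replicate 2, and at 0.10 without that library in edgeR with all strains or with CAST/EiJ alone. Adam8, at -1.11, was at 0.94 with library weights and 1.17 in each of those fits. Over the fits that left out 1 library they ran from -3.32 to 0.10 and from -1.46 to 1.17. Of the 126 genes, 20 were called in all 23 fits that left out 1 library, and 17 in every fit except those of edgeR on CAST/EiJ alone. No paired analysis was possible because the labels give no replicate numbers, so numbers follow accession order and pair nothing. With 4 libraries a diet and a biological coefficient of variation of 0.268, small changes can go uncalled.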
